A study of Mus musculus with 8 samples.

Results

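The cell death machinery is described here through 34 genes that carry out or restrain apoptosis, necroptosis and the inflammatory form of cell death: caspases, death receptors and their adaptors, the BCL2 family, and proteins released from or acting downstream of mitochondria. A gene was read from a probe set whose platform annotation names that gene alone, and from the probe set with the highest mean over the 8 arrays where there were several. By this rule 32 of the 34 genes were measured, out of 19938 genes with such a probe set, and *Ripk1* and *Bax* were not analysed here. Mean level over all arrays was used only to choose among the probe sets of a gene.

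Retinas came from C57BL/6J mice raised and kept in dim cyclic light of 5 lux, and were divided into superior and inferior retina. Exposed mice, aged 83 to 90 days after birth at the start, spent 14 days in constant 75% oxygen, and control mice stayed in normal air until the same final age. The 4 groups were control superior, control inferior, hyperoxia superior and hyperoxia inferior, each with 2 arrays, and each array held RNA pooled from 2 animals of this one strain, which limits every group to a small number of mice. The comparisons asked how oxygen changed each region of the retina and whether the regions differed in control and in exposed retina.

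Apoptosis can start at the cell surface or inside the cell. Death receptors such as FAS and the TNF receptor TNFR1 recruit adaptors that activate caspase 8, while the BCL2 family decides whether mitochondria release the factors that switch on caspase 9. Caspase 8 also cuts BID, which carries the signal from receptors to mitochondria, and it holds back necroptosis through RIPK3 and MLKL. High oxygen is known to be toxic to mouse photoreceptors, and caspase-independent routes through AIF and PARP1 are also known in dying photoreceptors.

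Values are log2 signals, and a difference is a log2 difference between group means, with its standard error (SE) and 95% interval from a limma model fitted to all 28853 probe sets. A change was called at a Benjamini-Hochberg adjusted p under 0.05 over all probe sets. Nothing in the labels says that the samples of a group were raised apart, so p-values cover the spread between arrays alone, and the small number of arrays limits precision. The median signal of an array lay between 6.98 and 7.05. Rod markers, headed by *Gnb1* and *Gnat1*, had a median signal of 12.8 to 13.2 on every array, so the tissue carried the marks of retina. Control inferior replicate 2 stood apart: the median of 13 lens genes, headed by *Cryaa* and *Crybb2*, lay 3.32 above those genes' means there, against -0.84 on replicate 1 of the same group and -0.69 to -0.10 on the other 6 arrays. The main values that rest on this array are therefore given below without it as well.

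After hyperoxia, 1 of the 32 genes passed the test: *Tnfrsf1a*, which encodes TNFR1, rose 1.57-fold over both regions. *Casp8* and *Fas* had differences of 0.52 and 0.42 over both regions but did not pass after adjustment. *Pycard*, *Bid* and *Parp1* had their larger differences in the inferior retina, at 0.55, 0.43 and 0.34, and *Xiap* and *Bcl2*, both of which restrain death, had differences of -0.39 there, again without passing. The remaining members had differences no larger than 0.36 in either direction in each region, without passing. The largest were 0.36 for *Casp1* in the inferior (interval -0.06 to 0.78) and 0.35 for *Ripk3* in the superior retina.

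*Tnfrsf1a* was measured at 7.22 and 7.09 on the control superior arrays and at 7.41 and 7.47 on the control inferior arrays. It was measured at 7.65 and 7.92 on the hyperoxia superior arrays and at 8.02 and 8.23 on the hyperoxia inferior arrays. No 2 groups overlapped, and the groups ran from control superior, the lowest, through control inferior and hyperoxia superior to hyperoxia inferior. Averaged over both regions the difference was 0.65 (SE 0.09, 95% interval 0.46 to 0.85, n = 4 and 4 arrays, limma adjusted p = 0.0155). In the inferior retina the difference was 0.68 (SE 0.12, limma adjusted p = 0.0637), and in the superior retina it was 0.62 (SE 0.12, limma adjusted p = 0.445), so neither region passed alone. Retinas were divided into their regions after removal, and neither the labels nor the methods say whether superior and inferior samples of a condition came from the same mice, so the 4 arrays of a condition may stand for fewer than 4 separate pools and the averaged p-value may then be too small. The changes in the 2 regions differed by 0.06 (interval -0.33 to 0.45), a difference that was not resolved. The inferior retina lay 0.28 above the superior in control retina and 0.34 above it after hyperoxia, without passing (limma adjusted p = 0.93 and 0.515). Without control inferior replicate 2 the averaged difference was 0.67 (limma adjusted p = 0.0373), the inferior difference 0.715 and the difference between regions in control retina 0.25. The call ended without either control superior array, hyperoxia superior replicate 2 or hyperoxia inferior replicate 2, with adjusted p-values of 0.0633 to 0.086.

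Markers of some other cells also differed between the groups. All 19 measured genes of microglia and macrophages, headed by *Ctss* and *C1qa*, had differences above 0 in both regions, with a median of 1.25 in inferior (14 passed) and 0.44 in superior retina (1 passed). Their summed linear signal was 2201 to 2284 in control superior, 2397 to 2483 in control inferior, 3310 to 3345 in hyperoxia superior and 6468 to 7155 in hyperoxia inferior retina. The group means of *Tnfrsf1a*, *Fas*, *Casp1*, *Casp4*, *Mcl1*, *Bak1*, *Bad*, *Bbc3* and *Parp1* had the same order, and the other measured members had other orders. Some of these genes differed little between groups, such as *Bad*, with means of 7.76 to 7.86. The share of all probe sets with this order was not counted. Among the 19 the lowest mean log2 signal was 5.15, and their part in the cell death values was not tested. The 11 genes of the retinal pigment epithelium, headed by *Ttr* and *Rgr*, had a median of 1.14 in superior retina, with all 11 above 0. There 9 were higher at a limma unadjusted p under 0.05, against 3.43% of all probe sets. In inferior retina the median was -0.33, with 4 above and 7 below 0, and 1 was lower at that threshold, against 4.43%. In both regions 0 of these genes passed after adjustment. Their summed signal was 2970 to 6383 in control superior, 5064 to 9882 in control inferior, 9872 to 10662 in hyperoxia superior and 8774 to 9221 in hyperoxia inferior retina, and their part was not tested either. Averaged median differences were 0.05 for other blood leukocytes, -0.03 for 10 Muller cell genes, -0.06 for 10 rod genes, 0.02 for cones, -0.09 for vascular endothelium, -0.07 for the 2 measured erythrocyte genes and -1.03 for 13 lens genes, all 13 of them below 0. Of these lists 1 gene passed, the Muller cell gene *Glul* (glutamine synthetase), with -0.70 in the inferior retina (limma adjusted p = 0.0416) and -0.48 on average (limma adjusted p = 0.0436). The 10 Muller cell genes had a median of 0.03 in the inferior retina, with 5 above and 5 below 0, so the list did not share this fall. The 10 rod genes had a median of -0.14 in the inferior retina, with 9 below 0, and 0.0054 in the superior. After hyperoxia their inferior minus superior median was -0.20, with 9 below 0. Their median deviation was 0.0009 on hyperoxia inferior replicate 1 and -0.26 on replicate 2, and their part in the cell death values was not tested. In RNA of a whole tissue, fewer cells of a type and less RNA per cell cannot be told apart.

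**Figure D1:**
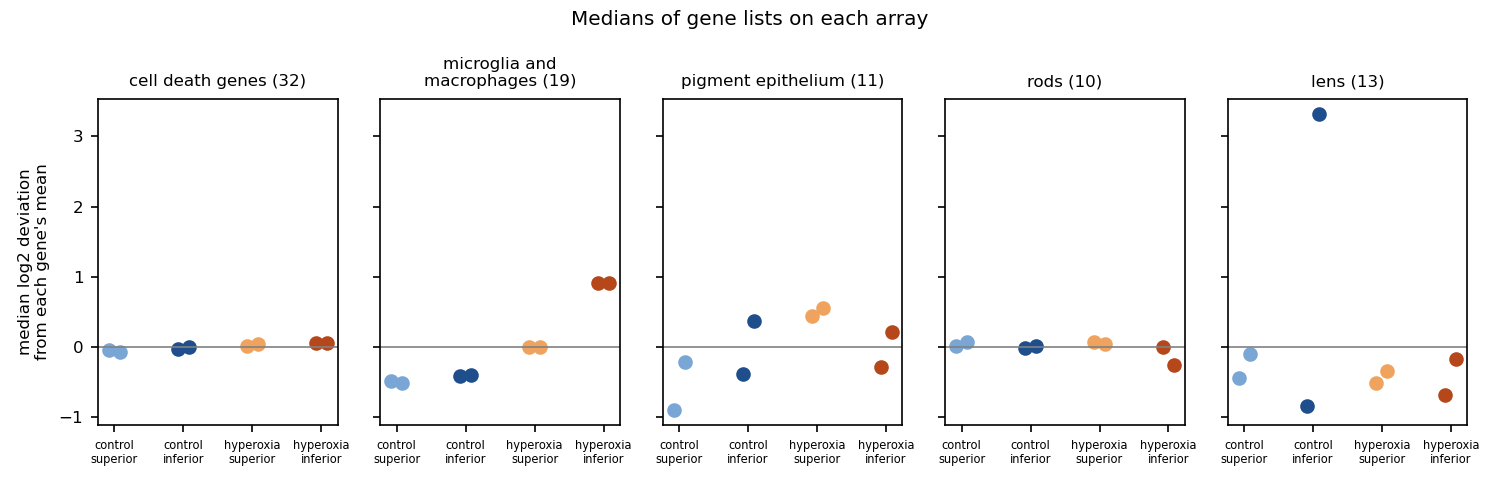
Median log2 deviation of gene lists from each gene's mean over the 8 arrays, by group, with 1 point for each array and the number of genes in brackets. The median of the 32 cell death genes stays within 0.08 of 0, microglia and macrophage genes reach 0.91 in hyperoxia inferior retina, and lens genes stand at 3.32 on 1 control inferior array.

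For the 3 genes of the receptor route with the highest averaged differences, the 250 bases before the RefSeq gene start are shown so that the sequence can be read beside the values. All are on the plus strand of GRCm38.p6, at chr6:125349473-125349722 for *Tnfrsf1a*, chr1:58802252-58802501 for *Casp8* and chr19:34290409-34290658 for *Fas*. Capitals mark matches to the STAT letters TTCNNNGAA or the AP-1 letters TGANTCA, searched on both strands.
Tnfrsf1a: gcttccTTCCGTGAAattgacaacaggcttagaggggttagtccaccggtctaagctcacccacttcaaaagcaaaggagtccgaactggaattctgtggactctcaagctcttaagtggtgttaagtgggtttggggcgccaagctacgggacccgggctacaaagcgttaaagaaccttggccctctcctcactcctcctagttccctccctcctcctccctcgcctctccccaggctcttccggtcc
Casp8: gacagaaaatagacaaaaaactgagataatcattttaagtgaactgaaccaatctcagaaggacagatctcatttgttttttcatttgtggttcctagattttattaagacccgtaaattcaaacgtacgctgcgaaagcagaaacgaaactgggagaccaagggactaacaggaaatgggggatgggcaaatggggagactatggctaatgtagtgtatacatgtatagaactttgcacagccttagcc
Fas: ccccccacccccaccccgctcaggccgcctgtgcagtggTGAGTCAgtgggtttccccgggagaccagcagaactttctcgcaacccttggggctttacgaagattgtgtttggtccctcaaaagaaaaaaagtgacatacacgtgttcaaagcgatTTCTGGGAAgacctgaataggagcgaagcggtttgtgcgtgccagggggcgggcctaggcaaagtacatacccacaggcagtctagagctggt
The STAT letters stood at -244 to -236 in *Tnfrsf1a* and at -93 to -85 in *Fas*, and the AP-1 letters at -211 to -205 in *Fas*. Of 32851 such windows over all genes, 7.02% held the STAT letters and 6.75% the AP-1 letters. Among 31 members with a window, 3 held the STAT letters (*Casp12*, *Fas*, *Tnfrsf1a*) and 1 the AP-1 letters. The interferon-response letters GAAANNGAA stood in 1 member, *Xiap*, against 7.13% of all windows, and the kappa B consensus in 5 (*Aifm1*, *Bbc3*, *Bcl2l1*, *Casp4*, *Nlrp3*) against 7.25%. A match is a match of letters and was not tested for binding.

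**Figure D2:**
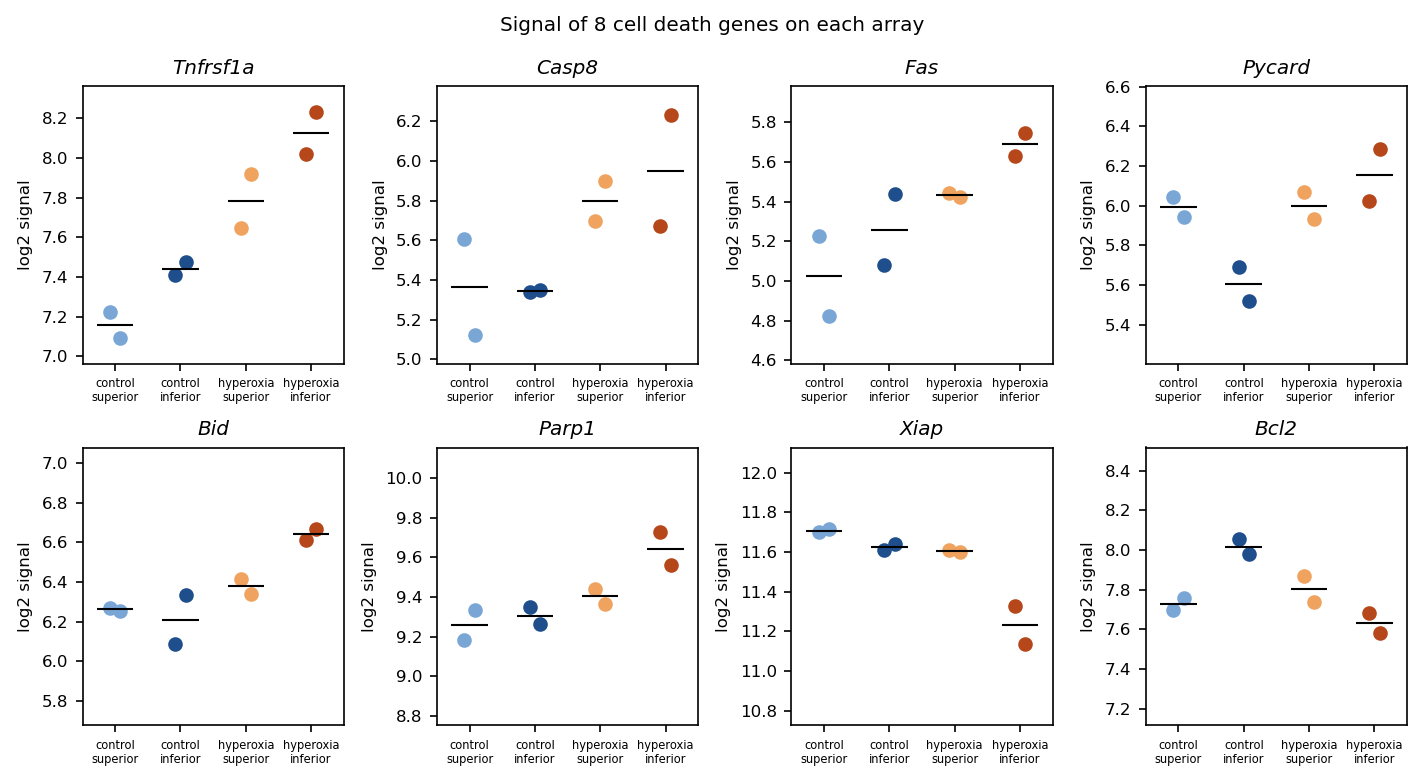
Log2 signal of 8 cell death genes on each of the 8 arrays, by group, where points are arrays and lines are group means; each vertical axis spans the same number of log2 units but starts at its own level. The 4 hyperoxia arrays of *Tnfrsf1a* sit between 7.65 and 8.23, above the 4 control arrays at 7.09 to 7.47, while *Bcl2* is highest in control inferior retina.

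*Casp8*, the initiator caspase of the death receptors, was measured at 5.61 and 5.12 in control superior and at 5.34 and 5.35 in control inferior retina. After hyperoxia it was measured at 5.70 and 5.90 in superior and at 5.67 and 6.23 in inferior retina. All 4 exposed arrays lay above all 4 control arrays, but the replicates of control superior and of hyperoxia inferior lay far apart. The averaged difference of 0.52 (interval 0.19 to 0.85) did not pass (limma adjusted p = 0.272). *Fas*, the receptor for FAS ligand, was measured at 5.22 and 4.82 in control superior, 5.08 and 5.44 in control inferior, 5.45 and 5.42 in hyperoxia superior, and 5.63 and 5.74 in hyperoxia inferior retina. Its hyperoxia groups lay above the control group of the same region, and only control inferior replicate 2 reached the range of the exposed arrays. The averaged difference was 0.42 (interval 0.17 to 0.67, limma adjusted p = 0.24), and without control inferior replicate 2 it was 0.51 (limma adjusted p = 0.113).

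The adaptor *Fadd* and the caspase 8 inhibitor *Cflar* gave smaller values. *Fadd* differed by 0.23 in inferior and 0.01 in superior retina. *Cflar* has 3 probe sets, and the averaged differences were -0.18, -0.07 and -0.07, the last on the probe set with the highest mean. That probe set is numbered among those of chromosome 3 genes (19 of the nearest 20), while the other 2 are numbered among those of chromosome 1 genes, where *Cflar* lies, so its *Cflar* value is uncertain. For the other 31 members the chosen probe set was numbered among genes of the member's own chromosome. As a group, the 5 measured receptor genes had a median difference of 0.43 in inferior and 0.41 in superior retina, against 0.0054 and 0.0022 over all probe sets. These medians are the values of *Fas*. In each region 4 of 5 lay above 0, *Fadd* by only 0.01 in the superior retina, and the uncertain *Cflar* value lay below. Of listed genes of the same route that are not members, 10 other receptors and adaptors had medians of 0.05 and 0.11 in the 2 regions. The 4 death ligands had 0.08 and 0.01. The members were chosen with earlier results of these data known, so the gap may reflect that choice and was not tested.

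*Pycard* encodes ASC, the adaptor that assembles inflammasomes. It was measured at 6.05 and 5.95 in control superior and at 5.69 and 5.52 in control inferior retina, and at 6.07 and 5.93 in hyperoxia superior and 6.02 and 6.29 in hyperoxia inferior retina. Control inferior retina alone was low, and the other 3 groups overlapped. The difference after hyperoxia was 0.55 (interval 0.28 to 0.82) in inferior and 0.01 (interval -0.26 to 0.28) in superior retina, with limma adjusted p = 0.123 in the inferior retina. The 2 changes differed by 0.54 (limma adjusted p = 0.707), so a difference between regions was not called. Without control inferior replicate 2 the inferior difference was 0.46 (limma adjusted p = 0.26) and the 2 changes differed by 0.46.

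*Casp1*, the inflammatory caspase that matures interleukin 1 beta, had its highest mean in hyperoxia inferior retina, at 4.12 ± 0.19 (SD, n = 2) against 3.76 ± 0.44 in control inferior. *Casp4*, which senses bacterial lipopolysaccharide inside cells, was measured at 4.35 and 4.25 in control superior, 4.48 and 4.41 in control inferior, 4.47 and 4.55 in hyperoxia superior, and 4.49 and 4.61 in hyperoxia inferior retina. Its exposed arrays lay above the controls of the same region, by 0.11 and 0.21 in the inferior and superior means. *Nlrp3*, an inflammasome sensor, was measured at 5.28 and 5.37 in control superior, 5.19 and 4.95 in control inferior, 5.15 and 5.23 in hyperoxia superior, and 4.99 and 5.16 in hyperoxia inferior retina. Control superior was its highest group, and in control retina the inferior minus superior difference was -0.26 (limma adjusted p = 0.93), or -0.14 without control inferior replicate 2. *Casp12*, a caspase linked to the endoplasmic reticulum, differed by -0.05 in inferior and 0.22 in superior retina. *Casp1*, *Casp4* and *Casp12* are neighbours on chromosome 9, and none was called in any comparison. These genes, with *Casp8*, *Fas*, *Mlkl*, *Pycard* and *Ripk3*, make up the 9 members with a mean signal under 6, where signals are dim.

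The necroptosis kinase *Ripk3* was measured at 5.90 and 5.59 in control superior, 5.67 and 5.96 in control inferior, 6.13 and 6.06 in hyperoxia superior, and 5.67 and 5.90 in hyperoxia inferior retina. Hyperoxia superior retina was its highest group, and the other 3 groups overlapped. The superior difference was 0.35 (interval 0.02 to 0.68, limma adjusted p = 0.87), and after hyperoxia the inferior retina lay 0.31 below the superior (limma adjusted p = 0.608). *Mlkl*, the protein that RIPK3 activates to open the cell membrane, differed by 0.24 in inferior and 0.01 in superior retina.

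*Bcl2*, the founding survival member of its family, was measured at 7.70 and 7.76 in control superior and at 8.05 and 7.98 in control inferior retina, and at 7.87 and 7.74 in hyperoxia superior and 7.68 and 7.58 in hyperoxia inferior retina. The inferior retina was the higher one in control retina and the lower one after hyperoxia, with no overlap between regions in either condition. Over all probe sets, 17.5% lay higher in inferior control retina and 18.5% lower in inferior exposed retina without overlap. The inferior change was -0.39 (interval -0.60 to -0.18, limma adjusted p = 0.157) and the superior change 0.07 (interval -0.14 to 0.28). Their difference of -0.46 did not pass (interval -0.76 to -0.16, limma adjusted p = 0.678), and without control inferior replicate 2 it was -0.50 (limma adjusted p = 0.559). The other survival genes held closer to 0: *Mcl1* differed by 0.18 in the inferior retina and 0.05 in the superior, and *Bcl2l1* and *Bcl2l2* by at most 0.06 in either region.

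*Bak1*, which forms pores in the outer mitochondrial membrane, lay between 6.42 and 6.55 on the exposed arrays and between 6.22 and 6.35 on the controls, a difference of 0.17 without overlap (limma adjusted p = 0.478). Of the BH3-only genes, which trigger that step, *Bid* had the highest averaged difference. *Bid* was measured at 6.27 and 6.25 in control superior and 6.09 and 6.33 in control inferior retina, and at 6.42 and 6.34 in hyperoxia superior and 6.61 and 6.67 in hyperoxia inferior retina. Hyperoxia inferior stood above the other 3 groups, and the 4 exposed arrays lay above the 4 controls. The inferior difference was 0.43 (interval 0.20 to 0.66, limma adjusted p = 0.157) and the superior 0.12. *Pmaip1*, which encodes NOXA, lay between 6.31 and 6.52 on exposed and 6.18 and 6.29 on control arrays, also without overlap. *Bbc3*, which encodes PUMA, *Bad* and *Bmf* differed by 0.10, 0.08 and 0.04 on average, and *Bcl2l11*, which encodes BIM, by -0.04.

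*Xiap*, an inhibitor that binds active caspases, was measured at 11.70 and 11.72 in control superior and 11.61 and 11.64 in control inferior retina, and at 11.61 and 11.60 in hyperoxia superior and 11.33 and 11.14 in hyperoxia inferior retina. Only hyperoxia inferior stood clearly lower. Its inferior difference was -0.39 (interval -0.60 to -0.18, limma adjusted p = 0.153), the superior was -0.10, and after hyperoxia the inferior retina lay -0.37 from the superior (limma adjusted p = 0.298). Without control inferior replicate 2 the inferior difference was -0.38 (limma adjusted p = 0.279). Rod markers were also lowest on hyperoxia inferior replicate 2, with a median of -0.26 from their means, against -0.01 to 0.07 on the other 7 arrays, and their part in the *Xiap* value was not tested.

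*Parp1*, a DNA damage sensor that drives a caspase-independent death when overactive, was measured at 9.18 and 9.34 in control superior, 9.35 and 9.26 in control inferior, 9.44 and 9.36 in hyperoxia superior, and 9.73 and 9.56 in hyperoxia inferior retina. The 4 exposed arrays lay above the 4 controls, and hyperoxia inferior was highest. The inferior difference was 0.34 (interval 0.11 to 0.57, limma adjusted p = 0.289) and the superior 0.14. *Aifm1*, which encodes AIF, was measured at 8.94 and 8.80 in control superior, 8.92 and 9.08 in control inferior, 9.01 and 9.20 in hyperoxia superior, and 8.98 and 8.97 in hyperoxia inferior retina. Its superior arrays after hyperoxia lay above the superior controls, by a mean of 0.23 (limma adjusted p = 0.884), while the inferior means differed by -0.03. The apoptosome genes *Apaf1* and *Casp9* differed by -0.09 and -0.05 on average, *Casp2* and *Casp6* by -0.01 and -0.02, and the mitochondrial proteins *Diablo* and *Endog* by -0.03 and -0.07. None of these passed in any comparison. Without control inferior replicate 2 the inferior differences were 0.61 for *Casp8*, -0.42 for *Bcl2*, 0.55 for *Bid* and 0.30 for *Parp1*, again without passing (limma adjusted p = 0.401, 0.229, 0.115 and 0.418). They were 0.05 for *Casp1*, 0.39 for *Fadd* and 0.08 for *Mlkl*, and none passed.

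**Figure D3:**
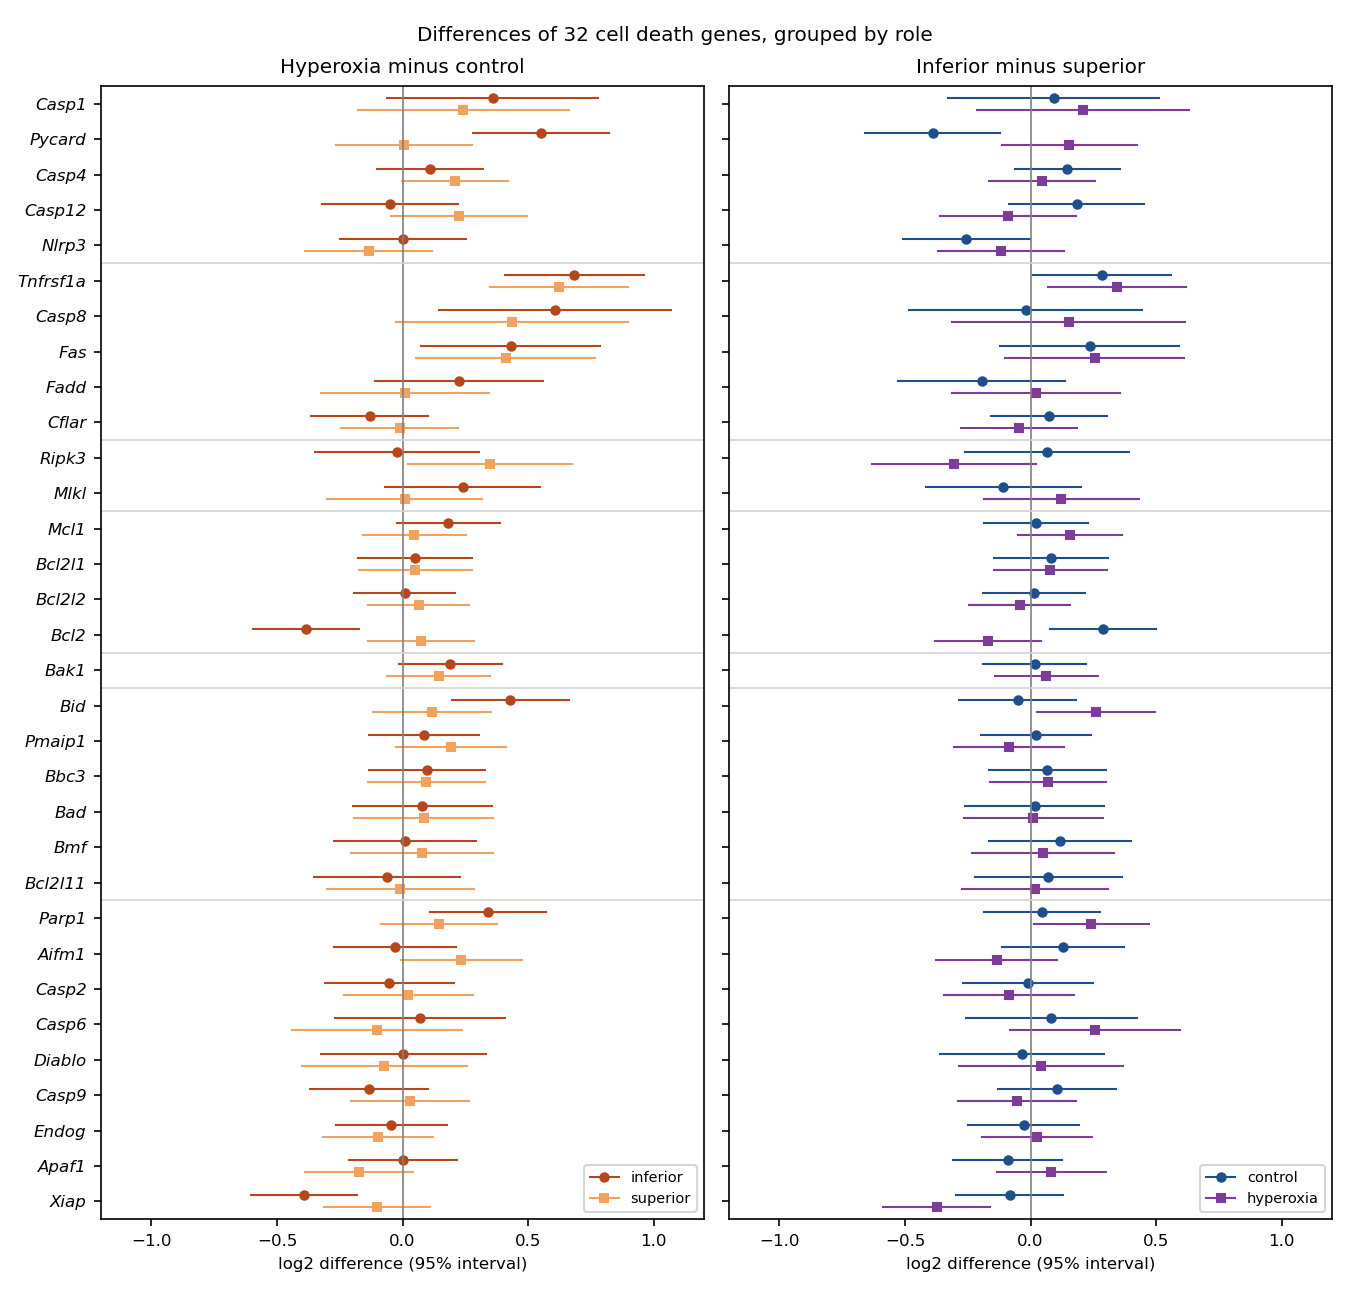
Log2 differences of the 32 measured genes with 95% intervals, grouped by role: on the left hyperoxia minus control in the inferior (circles) and superior (squares) retina, on the right inferior minus superior in control (circles) and hyperoxia-exposed (squares) retina. *Tnfrsf1a* lies to the right of 0 in both regions on the left, at 0.68 and 0.62, and *Bcl2* changes side between control and exposed retina on the right.

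Counted over the list, 0 members rose and 0 fell past the adjusted test in the inferior retina, where 0.43% of all probe sets rose and 0.0624% fell. At an unadjusted p under 0.05, 6 members were higher (18.8%, against 4.96% of all probe sets) and 2 were lower (6.25%, against 4.43%). In the superior retina 0 members passed in either direction after adjustment, against 0.0139% higher and 0.00347% lower over all probe sets. There 3 members (*Tnfrsf1a*, *Fas* and *Ripk3*, 9.38%) were higher at an unadjusted p under 0.05 and 0 were lower, against 3.43% and 2.16%. Averaged over both regions, 1 of 32 (3.12%) rose against 0.447% of all probe sets, and 0 fell against 0.121%. At an unadjusted p under 0.05, 9 members were higher (28.1%, against 4.96%) and 2 lower (6.25%, against 4.02%). These counts rest on all 8 arrays. Of the 9, *Casp1* and *Casp4* had averaged differences of 0.30 and 0.16, and of 0.15 and 0.14 without control inferior replicate 2. Those of *Fas* and *Tnfrsf1a* were larger without it, as given above. The groups did not overlap in 6 members that were higher on all 4 exposed arrays, against 2.9% of all probe sets, and in 0 that were lower, against 2.58%. Between 2 groups of 2 arrays, 16.7% to 20.5% of all probe sets did not overlap in each direction, depending on the comparison. The methods' t-test on the same arrays called 0 members after adjustment in every comparison. Its members at an unadjusted p under 0.05, higher and lower together, were 8 in inferior retina, 2 in superior and 9 on average.

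Between the regions, 0 members passed in control retina, where 0% of probe sets passed in either direction. *Bcl2* and *Tnfrsf1a* (6.25%) were higher and *Pycard* and *Nlrp3* (6.25%) lower in the inferior retina at an unadjusted p under 0.05. Over all probe sets 2.49% were higher and 2.81% lower. Without control inferior replicate 2 these differences were 0.33 for *Bcl2*, 0.25 for *Tnfrsf1a*, -0.30 for *Pycard* and -0.14 for *Nlrp3*. The control difference of *Casp1* was 0.09 with that array and 0.40 without it. After hyperoxia 0 members passed, against 0.125% higher and 0.0139% lower. *Tnfrsf1a*, *Bid* and *Parp1* (9.38%) were higher and *Xiap* (3.12%) lower at an unadjusted p under 0.05, against 4.25% of all probe sets in each direction. For the change after hyperoxia compared between regions, 0 members passed, against 0.00347% higher and 0% lower over all probe sets. *Pycard* (higher, 3.12%) and *Bcl2* (lower, 3.12%) were at an unadjusted p under 0.05 there, against 3.02% and 3.03% of all probe sets.

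The shift of the whole list was small. The median difference of the 32 genes was 0.06 in the inferior retina, 0.07 in the superior and 0.09 on average, with 22, 24 and 21 genes above 0, against medians of 0.0054, 0.0022 and 0.0037 over all probe sets. On single arrays the list's median deviation from each gene's mean ran from -0.08 to 0.0008 in control and from 0.015 to 0.06 in exposed retina. Hyperoxia inferior had the highest mean for 17 of 32 genes (53.1%), against 28.3% of all probe sets. The 95% intervals lay within 1 log2 unit of 0 for 31 of 32 genes in the inferior retina, all but *Casp8*, and for all 32 in the superior retina. They lay within 0.5 for 21 and 27 genes. Without the 9 dim genes the list's median was 0.0089 in the inferior retina and 0.0437 on average, and with arrays centred on their medians the inferior value was 0.0358.

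Of 64 other genes of the same pathways, 57 were measured. On average over both regions 0 of the 57 rose and 1 fell, against 0.447% and 0.121% of all probe sets. The gene was *Bnip3*, which encodes a hypoxia-induced BH3 protein of the outer mitochondrial membrane that acts in mitophagy and death. On the brighter of its 2 probe sets it was measured at 10.26 and 10.41 in control superior, 10.37 and 10.25 in control inferior, 9.67 and 9.85 in hyperoxia superior, and 9.77 and 9.77 in hyperoxia inferior retina. All exposed arrays lay below all controls, by a mean of -0.56 (SE 0.07, limma adjusted p = 0.0155), with -0.54 in inferior and -0.57 in superior retina. That probe set is numbered among those of chromosome 14 genes, while the dimmer one is numbered among those of chromosome 7 genes, where *Bnip3* lies, and gave -0.33 without passing (limma adjusted p = 0.293), so the *Bnip3* call is uncertain. On the brighter probe set the averaged difference was -0.59 without control inferior replicate 2 (limma adjusted p = 0.0294). The call ended without either control superior array, hyperoxia superior replicate 1 or either hyperoxia inferior array, with adjusted p-values of 0.0527 to 0.0838, and by the methods' t-test (0.229). The median of the 57 genes was 0.05 on average, with 36 above 0, against 51.5% of all probe sets.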

How the data were processed

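RNA of 4 groups was hybridised to 8 Affymetrix Mouse Gene 1.0 ST arrays, 2 per group. The authors corrected background by RMA and summarised probes by median polish in Partek, and the deposited values are log2 signals, used as they stand (versions, and any normalization between arrays: not given in the sources used here). Of 28853 probe sets, 21789 have 1 gene symbol, 1621 several and 5443 none listed.

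A model with 1 mean per group, over all 8 arrays, was fitted in limma 3.58.1 (R 4.3.3) with 4 residual and 4.47 prior degrees of freedom, tested on simulated data, with Benjamini-Hochberg adjustment over all probe sets and a threshold of 0.05, in 6 comparisons. The number of arrays limits the precision. The genes and lists were chosen with earlier results of these data known, so no list was tested. Values on each array are given for genes called in any comparison and for the 5 with the smallest p in each comparison of 2 groups or of the averaged change. *Bak1*, *Pmaip1*, *Casp1* and other members are given by ranges or means. In all, 18 alternatives were tried: scaling, filters (a mean log2 under 6, 1-symbol probe sets), the spread model, the methods' t-test, the replicate block, and leaving out each array.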

Additional observations from a re-analysis of the deposited data

Results flagged for a closer look

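The order of the 2 regions in *Bcl2* was opposite in control and in exposed retina: both control inferior arrays lay above both control superior arrays, and both hyperoxia inferior arrays lay below both hyperoxia superior arrays. Such separation of 2 arrays from 2 was common: 17.5% of all probe sets were higher in inferior control retina without overlap. In exposed retina 18.5% were lower in the inferior region without overlap. The changes after hyperoxia differed between regions by -0.46 on the log2 scale (limma adjusted p = 0.678 over all probe sets), so the difference did not pass the test, and in the superior retina the exposed and control arrays overlapped.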

How the results depend on the processing

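Of the values of single genes recomputed under each alternative, 538 of 567 kept their sign in the inferior retina and 543 in the superior. Between regions 542 kept it in control and 546 in exposed retina. On average 522 of 535 kept it, and 498 of 535 for the difference between regions. Many of these signs could not change. The methods' t-test, the spread model, the replicate block and the filters alter p-values and leave a gene's difference as it was. So does leaving out an array that a comparison does not use. Of called values 0 reversed, but only 1 member was called in the main model. The averaged *Tnfrsf1a* difference ran from 0.59 to 0.72, with adjusted p-values from 0.0028 with a variance trend to 0.284 by the methods' t-test, which called 0 members. Leaving out 1 array gave 0 to 1 members called: 0 without control superior replicate 1 (0.0633), control superior replicate 2 (0.086), hyperoxia superior replicate 2 (0.0709) or hyperoxia inferior replicate 2 (0.0784). In the inferior retina *Tnfrsf1a* passed with dim probe sets left out (1 member called, adjusted p = 0.0246) and with 1-symbol probe sets only (1 member, 0.0397), and with a variance trend 2 members passed, *Tnfrsf1a* (0.0203) and *Xiap* (0.0286). Over these settings its inferior adjusted p ran from 0.0203 to 0.368. The list's median moved to 0.0358 in the inferior retina and 0.072 on average with centred arrays, and to 0.0089 and 0.0437 with dim probe sets left out, where 23 genes remained. Leaving out 1 array gave medians of 0.0391 (without control inferior replicate 1) to 0.1068 (without hyperoxia inferior replicate 1) in the inferior retina, 0.0485 to 0.104 in the superior, -0.0032 to 0.0851 between regions after hyperoxia, 0.0551 to 0.1162 on average and -0.0145 to 0.0923 for the difference between regions. Apart from fewer genes or arrays, the causes were not tested. With the replicate number as a block, 1 member was called on average (*Tnfrsf1a*, adjusted p = 0.0232) and no call changed. Same-numbered arrays did not deviate together throughout, with correlations of -0.0213 to 0.1441 between groups, and the main model did not pair samples by number. Between superior and inferior arrays the correlation was 0.0723 in control and 0.1038 in exposed retina. These values cannot decide whether the regions shared mice, and the main comparisons between regions were fitted without pairing. Dim signals limit the 9 genes with a mean under 6. For *Bnip3*, recomputed under the same alternatives after its value was seen, the averaged call was also lost with the mean over its 2 probe sets (-0.44, adjusted p = 0.0507).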
